A study of Mus musculus with 26 samples.

Results

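Transcript levels of 10 genes of the embryonic basement membrane were followed across 26 single inner cell masses of mouse blastocysts. The genes encode the 3 chains of laminin-111 (Lama1, Lamb1, Lamc1), 2 chains of collagen IV (Col4a1, Col4a2), the matrix partners perlecan and nidogen-2 (Hspg2, Nid2), the collagen-binding protein SPARC (Sparc), and 2 factors that mature collagen inside the cell (Serpinh1, P4ha1). They were taken by name from a table of 55254 gene symbols, and all 10 passed the expression filter that left 12034 genes for testing. Each library is 1 inner cell mass (ICM), the inner group of cells of the blastocyst, freed of its outer layer by immunosurgery and sequenced by FLASH-seq, a full-length method for very small RNA amounts.

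All embryos were of the CD-1 strain, came from natural matings, and were cultured in KSOM medium for 24 hours from the morula stage (E2.75). The DMSO group (5 ICMs) received vehicle. The LY group (7 ICMs) received 10 µM LY294002, an inhibitor of the kinase PI3K, and the FGF4 group (8 ICMs) received 1 µg/ml FGF4 with heparin. The LY+FGF4 group (6 ICMs) received both agents. Litters were mixed before the embryos were divided, so the litter of a library is not known, and no group received heparin alone.

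A basement membrane is a thin sheet of matrix on which epithelia rest. Laminin chains join as trimers in the cell and form the first network, collagen IV forms a second one, and nidogens and perlecan bridge them. In the mouse blastocyst the primitive endoderm, 1 of the 2 lineages of the ICM, is known for making this matrix, and FGF4 from the other lineage, the epiblast, is known to promote primitive endoderm. The comparisons ask how these transcripts follow added FGF4 and inhibited PI3K, each alone and together.

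The values are TPM, which corrects for transcript length and scales each library to a common total, so levels of different genes can be set side by side. DMSO libraries listed 10212 to 11367 genes with 1 TPM or more, LY libraries 9860 to 10215, FGF4 libraries 8315 to 10871 and LY+FGF4 libraries 7486 to 9534. Fewer than 9000 genes were listed in 6 libraries, which are FGF4 replicates 2 and 3 and LY+FGF4 replicates 2, 3, 5 and 8. A check of 10 housekeeping genes found each above 0 in every library. Gata6 of primitive endoderm was above 0 in all 26 libraries. The summed level of 15 trophectoderm markers ran from 864.46 to 1653 TPM in DMSO ICMs, from 1110.42 to 1736.6 TPM with LY, from 541.76 to 1440.11 TPM with FGF4, and from 287.94 to 1550.23 TPM with both. Transcripts of this list were therefore present in every group. In LY+FGF4, Elf5, Tfap2a, Ascl2 and Hand1 were at 0 in all libraries and Cdx2 in 4 of 6. Elf5 and Ascl2 were at 0 in all FGF4 libraries too. Other genes had higher means (± SD) in LY+FGF4 than in DMSO. Among them were Eomes (59.6 ± 39.9 against 15.2 ± 7.1 TPM), Gata3 (27.1 ± 49.1 against 3.89 ± 3.03 TPM) and Krt7 (16.9 ± 26.4 against 2.86 ± 0.871 TPM). In the fit described below, 3 of 13 tested genes of this list had estimates above 0 for LY+FGF4 against DMSO. The list thus went both ways, and its sum alone does not show whether outer cells were present. Where a level differs between groups, fewer cells of a type and less RNA per cell cannot be told apart in a whole ICM.

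The genes lie on 9 chromosomes, and only the collagen IV genes are neighbours. On GRCm38 Lama1 spans 67697259 to 67822647 on chromosome 17, Lamb1 31265234 to 31329644 on chromosome 12 and Lamc1 153218922 to 153332786 on chromosome 1. Hspg2 spans 137468769 to 137570630 on chromosome 4, Nid2 19751265 to 19811787 on chromosome 14, and Sparc 55394500 to 55423183 on chromosome 11. Serpinh1 spans 99345376 to 99353239 on chromosome 7 and P4ha1 59323296 to 59373304 on chromosome 10. Col4a1 (11198423 to 11312826, minus strand) and Col4a2 (11312805 to 11449287, plus strand) lie head to head on chromosome 8. The 5′ ends of their first exons overlap by 22 bases, shown because both start sites lie within it, read on the plus strand at chr8:11312805-11312826.
Col4a1 and Col4a2 shared start: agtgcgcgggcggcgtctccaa
The RefSeq promoter table (GRCm38.p6) held 7 of the 10 genes, without Lama1, Lamc1 and Nid2. In the 250 bases before the start site, the GC box GGGCGG, read on both strands, occurred in 5 of the 7 and in 32.7% of 32851 promoters of that length. The GATA box (GATAA or GATAG) occurred in 0 of the 7 and in 37.4% of all promoters, the SOX core ACAAT in 0 and 27.7%, CCAAT in 3 and 33.8%, and TATAAA in 0 and 12.4%. No motif's letters are contained in another's. The stretches below are the 100 bases before the first annotated exon base of 3 genes with a GC box there, 5′ to 3′ in the direction of transcription, with the GC box of either strand in capitals. They show how differently these GC boxes are spaced and oriented. The Lamb1 stretch is chr12:31265134-31265233 (plus strand), that of Hspg2 is chr4:137468669-137468768 (plus strand), and that of Serpinh1 is chr7:99353240-99353339 (minus strand).
Lamb1: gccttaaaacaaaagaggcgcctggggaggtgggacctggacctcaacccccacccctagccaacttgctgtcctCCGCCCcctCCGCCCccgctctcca
Hspg2: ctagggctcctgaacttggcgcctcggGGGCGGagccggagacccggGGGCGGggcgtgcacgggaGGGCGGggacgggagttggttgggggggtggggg
Serpinh1: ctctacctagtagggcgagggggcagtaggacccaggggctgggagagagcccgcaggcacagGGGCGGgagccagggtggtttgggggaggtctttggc
These are matches of letters only.

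In DMSO-treated ICMs the 10 transcripts covered a wide range. Lamb1, the beta 1 chain of laminin, was highest at 411 ± 155 TPM (SD, n = 5), and its lowest library (231.9 TPM) was above the highest library of every other member. Sparc (84 ± 31.5 TPM), P4ha1 (63.4 ± 11.3 TPM), Col4a1 (55.3 ± 17.5 TPM), Serpinh1 (51.1 ± 87.8 TPM), Col4a2 (30.4 ± 15 TPM) and Lamc1 (28 ± 17.3 TPM) followed, and the ranges of neighbours in this order overlapped. Lama1 averaged 9.39 ± 16.7 TPM. Hspg2 (0.86 ± 0.831 TPM) and Nid2 (0.236 ± 0.444 TPM) were close to 0. The Lamb1 transcript was therefore abundant in vehicle-treated ICMs while that of its alpha 1 partner was scarce. Lama5, which encodes the alpha chain of another laminin and is not among the 10, was at 36.7 ± 8.32 TPM there.

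**Figure D1:**
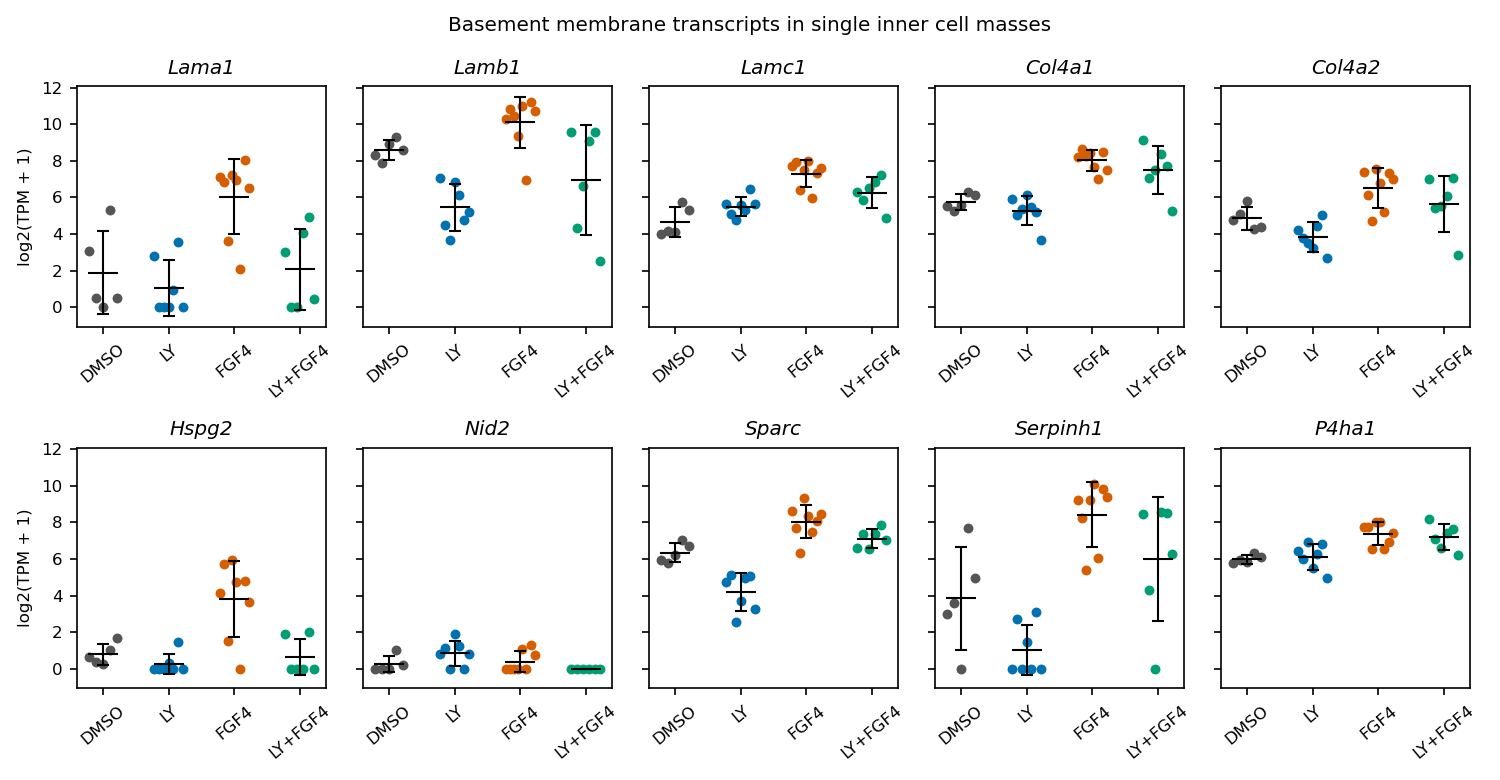
Level of each of the 10 transcripts, as log2(TPM + 1), in the 26 libraries by treatment; points are single ICMs, the long dash is the mean and the bar 1 SD. All FGF4 points of Lamc1, Col4a1 and P4ha1 lie above all DMSO points, and Nid2 stays near 0 in every group.

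The first question was how these transcripts respond to excess FGF4, relative to the vehicle. Of the 10 genes, 7 rose and 0 fell at a limma adjusted p under 0.05, where 0.981% of all tested genes rose and 1.46% fell. The 7 are 2 laminin chains, 1 collagen IV chain, perlecan, SPARC, and both collagen maturation factors. The median log2 fold change, here and below on the log2(TPM + 1) scale, was 1.98 for the 10 genes and -0.10 for all tested genes. That scale understates changes of low genes such as Hspg2. The 10 genes were chosen with earlier results of these data known. Their counts and medians, here and below, therefore describe these genes and are no independent support for an excess over all tested genes.

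Among laminin chains, Lamc1, the gamma 1 chain shared by most laminins, gave the smallest adjusted p. Its DMSO libraries held 14.91, 17.13, 16.09, 53.42 and 38.64 TPM, and its FGF4 libraries 60.98 to 255.17 TPM with a median of 187.745 TPM. The groups did not overlap, and the log2 fold change was 2.64 ± 0.41 (SE, adjusted p = 0.00065). Lama1, the alpha 1 chain that gives the trimer its cell-binding domains, was at 7.38, 0.45, 0, 38.71 and 0.41 TPM in DMSO. With FGF4 it ranged from 3.29 to 258.63 TPM (median 119.85 TPM), and 6 of 8 FGF4 libraries were above every DMSO library. Its log2 fold change was 4.17 ± 1.07 (adjusted p = 0.031). Lamb1 did not pass, although it averaged 1416 ± 740 TPM (n = 8). In DMSO it was at 320.9, 231.9, 485.95, 633.07 and 381.86 TPM, and 7 of 8 FGF4 libraries were above all of these, while replicate 6, at 122.65 TPM, was below them (log2 fold change 1.50, 95% interval -0.43 to 3.43, adjusted p = 0.47).

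Of the collagen IV chains, Col4a1 rose and Col4a2 did not pass. Col4a1 was at 44.87, 37.04, 47.31, 78.71 and 68.54 TPM in DMSO, and at 129.47 to 403.7 TPM (median 301.52 TPM) with FGF4. No FGF4 library overlapped the DMSO range (log2 fold change 2.28 ± 0.45, adjusted p = 0.0055). Col4a2 was at 26.52, 32.64, 55.13, 18.1 and 19.6 TPM in DMSO, and at 24.98 to 189.54 TPM (median 119.71 TPM) with FGF4. In Col4a2, 6 of 8 FGF4 libraries were above the DMSO range, and the log2 fold change was 1.66 (95% interval 0.46 to 2.87, adjusted p = 0.14). The intervals of the 2 chains overlap, so a p that passes for 1 of them does not show that they differ.

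Serpinh1, which encodes the collagen chaperone HSP47, had the steepest fitted change. It stood at 6.89, 11.29, 0, 206.82 and 30.5 TPM in DMSO and at 40.54 to 1090.39 TPM (median 591.535 TPM) with FGF4 (log2 fold change 4.57 ± 1.21, adjusted p = 0.038). DMSO replicate 8 alone reached into the FGF4 range. P4ha1, a catalytic subunit of the prolyl hydroxylase that stabilises the collagen triple helix, was at 53.14, 59.52, 55.27, 80.61 and 68.62 TPM in DMSO. With FGF4 it was at 90.88 to 262.07 TPM (median 191.98 TPM), without overlap (log2 fold change 1.38 ± 0.35, adjusted p = 0.03).

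The other matrix partners split. Hspg2 was at 0.55, 0.3, 0.19, 1.03 and 2.23 TPM in DMSO, so near the limit of what was listed. With FGF4 it ranged from 0 to 59.71 TPM (median 21.38 TPM), with 6 of 8 libraries above the DMSO range (log2 fold change 3.02 ± 0.75, adjusted p = 0.025). Sparc was at 60.51, 53.66, 73.73, 129.17 and 102.93 TPM in DMSO and 78.27 to 637.12 TPM (median 297.7 TPM) with FGF4. In Sparc 7 of 8 FGF4 libraries exceeded every DMSO library (log2 fold change 1.69 ± 0.44, adjusted p = 0.033). Nid2 was listed at 0 in 3 of 5 DMSO and 5 of 8 FGF4 libraries, and its log2 fold change was 0.15 (adjusted p = 0.89).

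Markers of the ICM lineages differed in the same comparison. The summed level of 8 regulators was 377.27 to 762.25 TPM in DMSO and 1115.77 to 1916.42 TPM with FGF4. Of 7 tested regulators 2 rose, Gata4 (4.18, adjusted p = 0.004) and Sox17 (2.76, adjusted p = 0.036). Of 8 epiblast markers 5 fell, among them Fgf4 (-5.15), Klf2 (-5.31) and Nanog (-4.28, adjusted p = 0.0156), and their summed level was 864.16 to 1233.86 TPM in DMSO and 89.39 to 527.16 TPM with FGF4. Of 13 tested trophectoderm markers 2 fell, Aqp3 (-3.63) and Cldn4 (-2.25). The primitive endoderm covariate was the mean log2 level of Gata6, Gata4, Sox17 and Pdgfra. With it, 0 of the 10 genes and only 2 of all tested genes were called. With the mean of the trophectoderm list as covariate, 1 of the 10 genes and 30 of all tested genes were called. When each of the 26 libraries was left out in turn, Lamc1 and Col4a1 passed every time, while the count fell to as low as 2 without DMSO replicate 6 or 7. It was 3 or 4 without DMSO replicate 3 or 9 or FGF4 replicate 1, 2, 4 or 5.

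**Figure D2:**
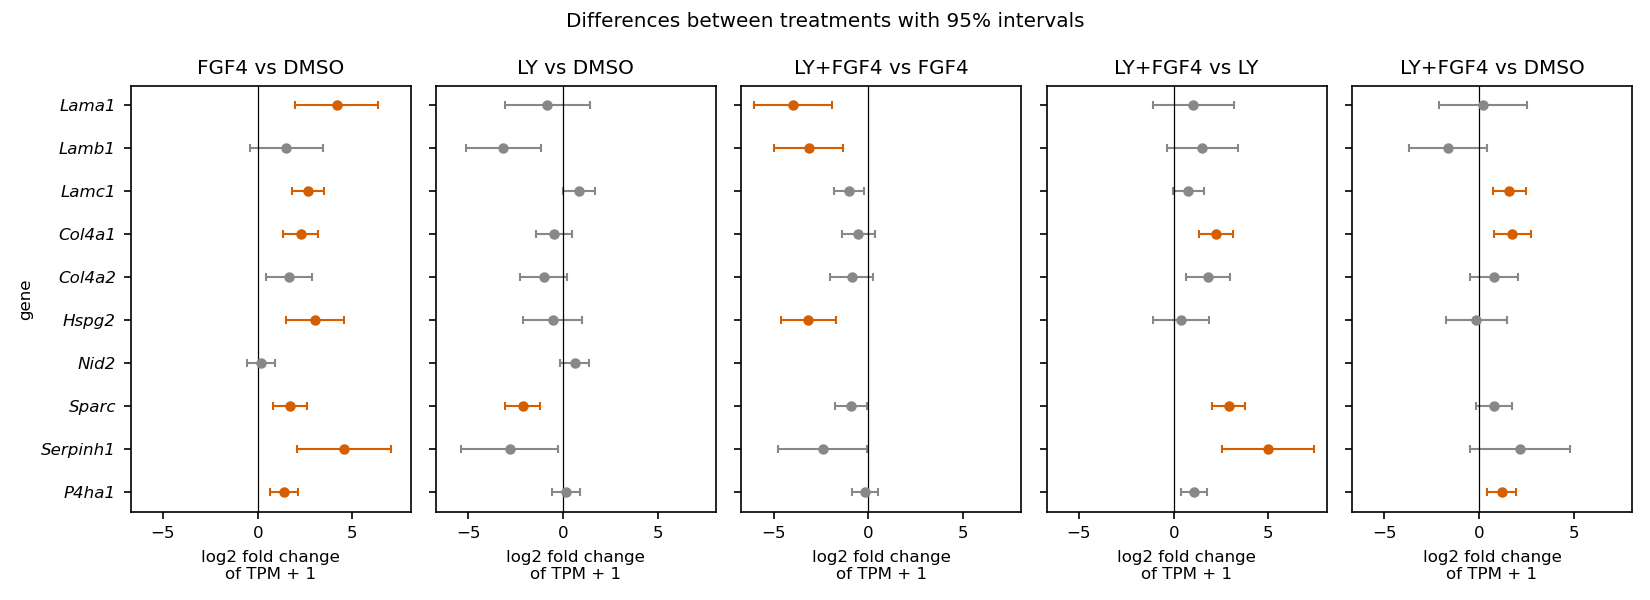
Log2 fold change on the log2(TPM + 1) scale with its 95% interval for each gene in 5 comparisons; orange marks an adjusted p under 0.05 and grey the rest. Nid2 is not drawn where LY+FGF4 enters because all 6 of those libraries list it at 0, and 7 orange points stand to the right of 0 for FGF4 against DMSO.

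Inhibition of PI3K without added FGF4 was examined by setting LY against the vehicle. This comparison and those of FGF4 and LY+FGF4 with DMSO share the 5 DMSO libraries. Sparc fell, 0 of the 10 genes rose, and the other 9 did not pass. Among all tested genes 0.0748% rose and 0.299% fell. Sparc was at 4.95 to 33.57 TPM in LY (median 25.81 TPM), below every DMSO library, and its log2 fold change was -2.13 ± 0.45 (adjusted p = 0.026). Its adjusted p was between 0.0582 and 0.0912 without DMSO replicate 3, 8 or 9 or LY replicate 4 or 8.

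Lamb1 also had no overlap between these groups. It was at 11.84 to 133.69 TPM in LY (median 35.36 TPM), against at least 231.9 TPM in DMSO, but the fitted log2 fold change of -3.15 (95% interval -5.13 to -1.17) had an adjusted p of 0.19. With the spread taken from the compared groups only, with library weights, with the trophectoderm list as covariate, or without the 6 libraries under 9000 genes, Lamb1 passed as well. Lamc1 was at 26.22 to 87.66 TPM in LY (median 47.21 TPM), with a log2 fold change of 0.84 (95% interval -0.02 to 1.70, adjusted p = 0.60). Serpinh1 was listed at 0 in 4 of 7 LY libraries and reached 7.6 TPM (log2 fold change -2.82, adjusted p = 0.49). Lama1 was listed at 0 in 4 of 7 as well, and reached 10.77 TPM.

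The collagen IV chains and P4ha1 overlapped with DMSO and were not called. Col4a1 was at 11.92 to 69.88 TPM in LY (log2 fold change -0.49, 95% interval -1.44 to 0.46), Col4a2 at 5.38 to 31.89 TPM (-1.02, -2.25 to 0.22) and P4ha1 at 29.75 to 121.49 TPM (0.13, -0.61 to 0.87). Hspg2 was listed at 0 in 5 of 7 LY libraries. Nid2 was above 0 in 5 of 7, at up to 2.77 TPM (0.61, adjusted p = 0.74). Of the primitive endoderm regulators Sox17 (-5.05, adjusted p = 0.00088) and Pdgfra (-2.71, adjusted p = 0.046) fell in the same comparison, and the summed list was at 162.51 to 335.24 TPM in LY. With the primitive endoderm covariate Sparc was not called, nor was any other tested gene.

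Whether PI3K inhibition alters the level reached under FGF4 was examined by setting the double treatment against FGF4 alone. Of the 10 genes 3 fell and 0 rose, where 2.83% of all tested genes fell and 0.723% rose. The 3 were Hspg2 and the laminin chains Lama1 and Lamb1. The 6 double-treated libraries (replicates 2, 3, 5, 6, 7 and 8) held 2.7, 0, 0, 0, 2.98 and 0 TPM of Hspg2, so only 2 of these 6 libraries were above 0, and 6 of 8 FGF4 libraries were above all of them (log2 fold change -3.17 ± 0.71, adjusted p = 0.011). Lama1 was at 7.27, 0, 0, 15.79, 29.63 and 0.35 TPM in the same order (-3.97 ± 1.01, adjusted p = 0.026). Lamb1 was at 759.37, 19.18, 98.65, 539.62, 761.54 and 4.77 TPM (-3.15 ± 0.89, adjusted p = 0.046), which are 3 libraries within the FGF4 range and 3 below its lowest library.

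The low Lamb1 values came from replicates 3, 5 and 8, all of which list fewer than 9000 genes, while replicate 2, which lists the fewest (7486), was among the high ones. Without the 6 libraries under 9000 genes, LY+FGF4 keeps only replicates 6 and 7. In that fit 0 of the 10 genes and 169 of all tested genes were called. Lamb1 then had a log2 fold change of -0.59, Lama1 -1.82 and Hspg2 -2.88, so that the difference of Hspg2 was close to that with all libraries and the difference of Lamb1 was not. With each library's gene number as covariate 0 of the 10 genes and 187 of all tested genes were called. The log2 fold changes were then -3.21 for Lamb1, -3.19 for Hspg2 and -2.92 for Lama1. Leaving out single libraries, Hspg2 passed in 26 of 26 runs, Lama1 in 22 and Lamb1 in 5. Omitting FGF4 replicate 7, or replicate 3, 5 or 8 of LY+FGF4, ended the calls of both Lama1 and Lamb1.

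Collagen IV and its maturation factors were not called in this comparison. Col4a1 was at 571.03, 132.14, 177.65, 331.3, 206.43 and 37.53 TPM in LY+FGF4, a range that reaches above and below that of FGF4. Its log2 fold change was -0.53 (95% interval -1.40 to 0.35), that of Col4a2 -0.87 (-2.01 to 0.27) and that of P4ha1 -0.19 (-0.87 to 0.50). The interval of Col4a1 does not overlap that of Lama1 (-6.04 to -1.90), but a difference between the fold changes of genes was not tested. Serpinh1 was at 348.99, 19.07, 0, 375.3, 357.58 and 75.43 TPM (-2.41, adjusted p = 0.25), Sparc at 91.59 to 228.69 TPM (-0.91, adjusted p = 0.23) and Lamc1 at 28.57 to 150.7 TPM (-1.04, adjusted p = 0.14). All 6 LY+FGF4 libraries listed Nid2 at 0, and it was above 0 in 3 of 8 FGF4 libraries. The summed primitive endoderm list was at 560.95 to 2276.35 TPM in LY+FGF4, and 0 of its 7 tested genes were called by limma, with 3 at an unadjusted p under 0.05, as had 18.8% of all tested genes. The summed epiblast list was at 89.39 to 527.16 TPM in FGF4 and 227.06 to 512.64 TPM in LY+FGF4, and 0 of its 8 genes were called by limma, with 1 at an unadjusted p under 0.05.

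The effect of FGF4 while PI3K is inhibited was read from LY+FGF4 relative to LY. Sparc, Col4a1 and Serpinh1 rose, and 0 members fell, where 1.79% of tested genes rose and 4.5% fell. For Sparc every LY+FGF4 library was above every LY library (log2 fold change 2.91 ± 0.43, adjusted p = 0.00016). Col4a1 was above the LY range in 5 of 6 LY+FGF4 libraries (2.24 ± 0.44, adjusted p = 0.0027), as was Serpinh1 (4.98 ± 1.18, adjusted p = 0.011). These 3 calls held in all 26 runs that left out 1 library.

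Col4a2 (1.81, adjusted p = 0.055) and P4ha1 (1.07, adjusted p = 0.059) just missed the threshold. Without LY replicate 7 or LY+FGF4 replicate 8 the count was 5. The laminin chains were not called, with 0.76 for Lamc1 (95% interval -0.05 to 1.58), 1.50 for Lamb1 (-0.38 to 3.38) and 1.04 for Lama1 (-1.10 to 3.17). Without the 6 libraries under 9000 genes, Lamb1 was at 3.87 and called (adjusted p = 0.0103), and Lama1 was at 3.46 (adjusted p = 0.15). Hspg2 gave 0.39 (adjusted p = 0.81). Of 7 tested primitive endoderm regulators 4 rose here, namely Sox17 (7.18), Pdgfra (4.23), Gata4 (4.75) and Gata6 (0.98, adjusted p = 0.036). Of 8 epiblast markers 5 fell (Fgf4, Gdf3, Klf2, Nanog and Tdgf1), and of 13 tested trophectoderm markers 3 fell (Tfap2c, Hand1 and Cldn4). With the primitive endoderm covariate 0 members and only 3 of all tested genes were called, and Col4a1 had a log2 fold change of -0.18.

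Against DMSO, LY+FGF4 was higher in Lamc1 (log2 fold change 1.60 ± 0.44, adjusted p = 0.02), Col4a1 (1.75 ± 0.48, adjusted p = 0.021) and P4ha1 (1.20 ± 0.37, adjusted p = 0.04). Of all tested genes 2.19% rose and 7.3% fell, and 0 members fell. In each of the 3 genes 5 of 6 LY+FGF4 libraries were above every DMSO library. Lama1 (0.20, 95% interval -2.12 to 2.52), Hspg2 (-0.15, -1.77 to 1.47) and Lamb1 (-1.65, -3.70 to 0.40) were not called. Lamb1 was below the DMSO range in 3 LY+FGF4 libraries and above it in 2. With the primitive endoderm or the trophectoderm covariate the 3 higher calls were lost, while 483 and 335 of all tested genes were called. Lamb1 was called lower with each (-3.82, adjusted p = 0.018, and -3.72, adjusted p = 0.0283). In this comparison 6 of 8 epiblast markers and 3 of 13 tested trophectoderm markers fell. Of 7 tested primitive endoderm regulators 0 rose and 1, Hnf4a, fell. Hnf4a averaged 77.6 ± 21.7 TPM in DMSO and 13.2 ± 32.3 TPM in LY+FGF4, where 5 of 6 libraries listed it at 0. With FGF4 alone it averaged 34.5 ± 31.5 TPM and was not called against DMSO. The count was 0 without DMSO replicate 6, and 1 without DMSO replicate 3 or 7 or LY+FGF4 replicate 2.

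The interaction (the effect of LY in the presence of FGF4 less its effect in vehicle) was called by limma for 0 of the 10 genes. Of all tested genes 0.0249% were called higher and 0.0249% lower. At an unadjusted p under 0.05 there were 3 members, Lamc1 (-1.88, adjusted p = 0.46), Hspg2 (-2.63, adjusted p = 0.70) and Lama1 (-3.13, adjusted p = 0.80). Of all tested genes 6.03% had such a p, and 56.7% had estimates at or below 0, as these 3 do. With the primitive endoderm covariate 1 member, Lamc1, was called, among 5 of all tested genes. A LY effect that differs with and without FGF4 was therefore not detected for the 10 genes in the design without covariates, and the intervals are wide, as in Lama1 (-6.19 to -0.08).

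The balance between chains was read within each library as the log2 ratio of (TPM + 1), which compares 2 genes of the same ICM. Lamb1 to Lamc1 averaged 3.93 ± 0.64 in DMSO (n = 5) and -0.05 ± 1.22 with LY (n = 7). With FGF4 it averaged 2.79 ± 1.00 (n = 8), and with both agents 0.68 ± 2.30 (n = 6). The beta chain thus exceeded the gamma chain in every DMSO library (lowest ratio 3.27), and the gamma chain was the higher one in 4 of 7 LY libraries (highest ratio 1.45). The difference between LY and DMSO was -3.99 (two-sided exact permutation test, p = 0.00126, the smallest these groups allow, adjusted p = 0.0189 over 15 tests).

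Lama1 to Lamc1 averaged -2.79 ± 1.97 in DMSO and -4.46 ± 1.18 with LY, and -1.26 ± 1.43 with FGF4 alone and -4.19 ± 1.72 with both agents. It was lower in LY+FGF4 than in FGF4 by -2.93 (exact permutation test, p = 0.00433, adjusted p = 0.0325). Without the 6 libraries under 9000 genes the difference was -1.50 (adjusted p = 0.47). Omitting 1 library at a time ended the call in 9 of 14 runs (FGF4 replicates 1, 2, 4, 5, 7 and 8, LY+FGF4 replicates 3, 5 and 8), with differences between -3.31 and -2.47. Lamb1 to Lamc1 in LY+FGF4 against FGF4 differed by -2.11 (exact permutation p = 0.0343, adjusted p = 0.13) and was not called.

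Col4a1 exceeded Col4a2 in 4 of 5 DMSO libraries and in all libraries of the other groups. The ratio averaged 0.90 ± 0.98 in DMSO, 1.43 ± 0.86 with LY, 1.51 ± 1.06 with FGF4 and 1.86 ± 0.66 with both agents, and 0 of 5 comparisons passed; the smallest p by exact permutation was 0.0844 (LY+FGF4 against DMSO, adjusted p = 0.21). The 2 genes share 22 exon bases on opposite strands, and the sources used here do not say whether counting used strand. The same holds for Nid2, which shares 437 exon bases with Rtraf.

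**Figure D3:**
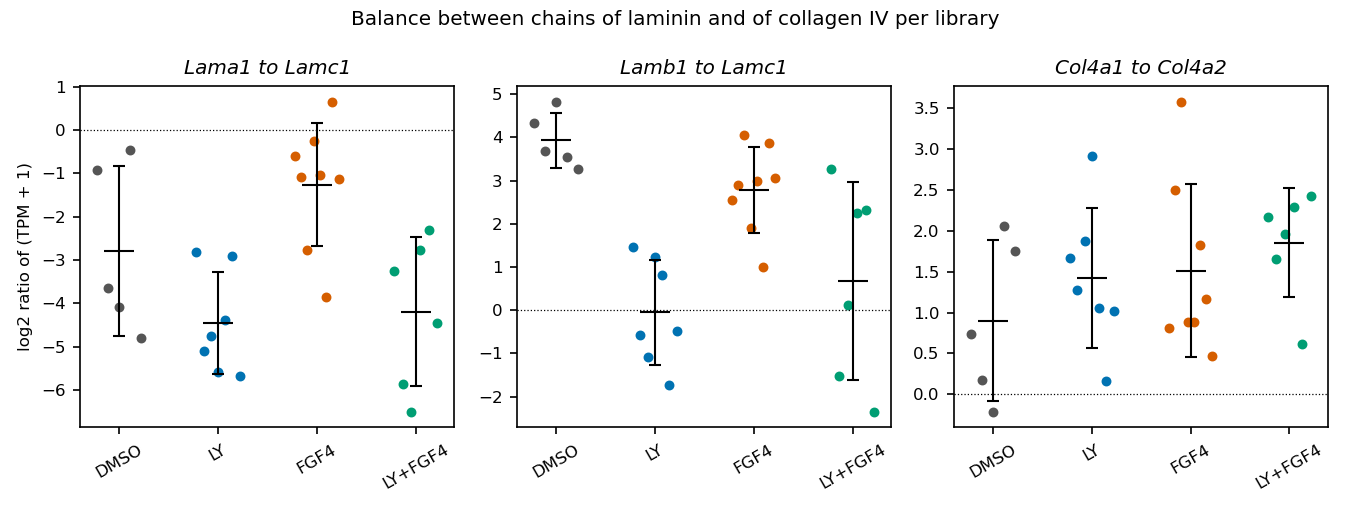
Log2 ratio of (TPM + 1) of Lama1 to Lamc1, Lamb1 to Lamc1 and Col4a1 to Col4a2 in each library; points are ICMs, the long dash the mean, the bar 1 SD and the dotted line equal levels, and the vertical axes differ. The 5 DMSO points of Lamb1 to Lamc1 lie above the 7 LY points.

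Within a treatment the members tended to be high or low in the same ICM. Nid2 is left out of the following counts, which therefore cover 9 genes. Libraries tied at 0 TPM for a gene each count as its lowest. DMSO replicate 8 was the highest of its group in 7 of 9, and it also had the highest Sox17 (298.94 TPM) and Gata4 (29.1 TPM) of the group. Its Gata6 (218.15 TPM) lay near the low end of the DMSO range of 209.79 to 311.7 TPM. LY replicate 7 was the highest or second in 7 of 9, and had the highest Sox17 in LY (21.02 TPM).

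FGF4 replicate 6 was the lowest or second lowest in 9 of 9. It lists 10434 genes, and had the lowest Gata4 of the FGF4 group (34.07 TPM) with Nanog at 176.48 TPM and Cdx2 at 281.73 TPM, where the other 7 FGF4 libraries reached at most 17.42 TPM of the epiblast factor Nanog and 54.41 TPM of the trophectoderm factor Cdx2. Sox17 (530.49 TPM), Gata6 (244.16 TPM) and Pdgfra (253.52 TPM) of FGF4 replicate 6 were not the lowest of the group. FGF4 replicate 3, which lists 8885 genes, was lowest or second lowest in 7 of 9. The part of cell composition in these levels was not tested.

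In LY+FGF4, replicate 7 was the highest or second in 8 of 9, with Pdgfra at 721.39 TPM. Replicate 8 was the lowest in 6 of 9, among them Hspg2, where 4 of the 6 libraries tied at 0. It had Gata4 at 1.97 TPM and Nanog at 104.79 TPM. Replicate 3 was lowest or second lowest in 7 of 9 with Gata4 at 3.77 TPM. Sox17 was at 332.07 TPM in replicate 8 and 488.69 TPM in replicate 3. Both were above replicate 5, which had the lowest Sox17 (114.79 TPM) and Pdgfra (66.12 TPM) of the group. Replicate 5 held Gata4 at 87.51 TPM and was lowest or second lowest in 5 of 9, so the markers did not share 1 order. Sparc did not follow the order of most members: replicates 3 and 8 held 161.42 and 128.39 TPM, above the 96.5 TPM of replicate 2.

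**Figure D4:**
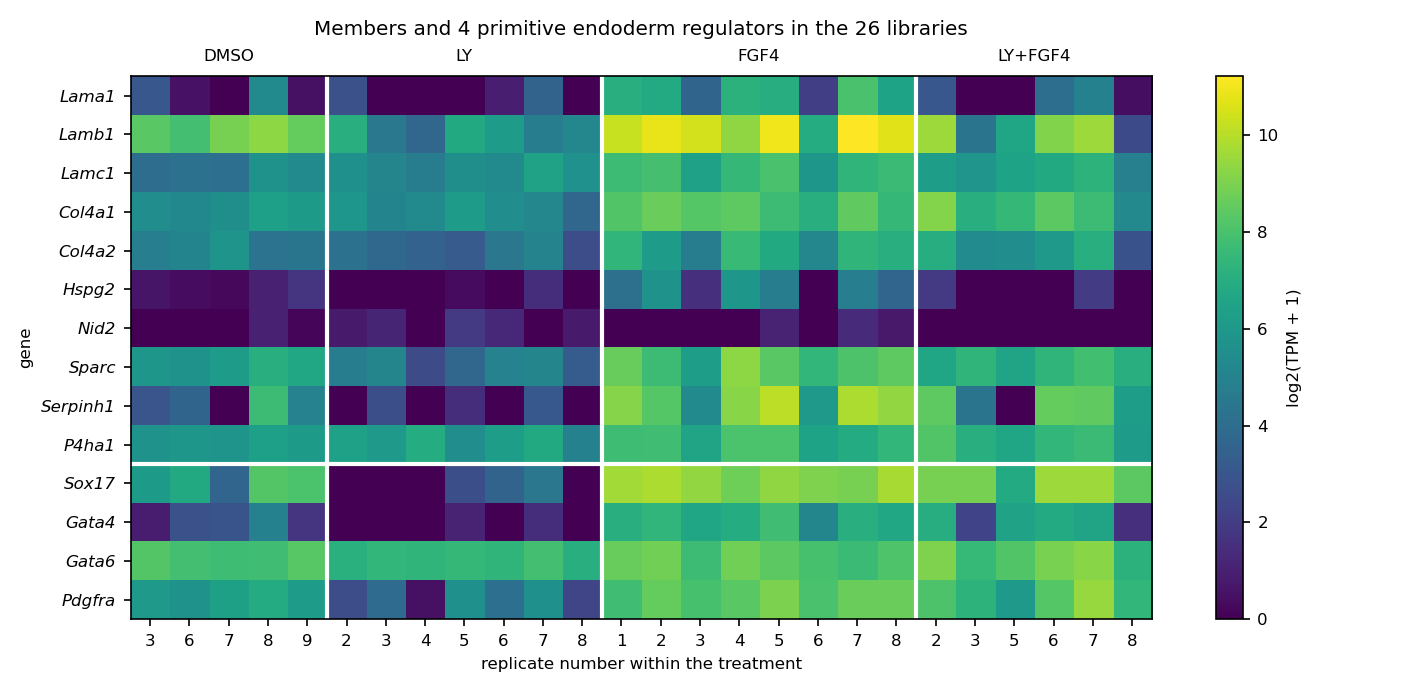
Log2(TPM + 1) of the 10 members (above the white line) and of 4 primitive endoderm regulators (below it) in each of the 26 ICMs, with replicate numbers along the bottom. FGF4 replicate 6 is darker than its group in Lama1, Lamb1, Hspg2 and Gata4, and LY+FGF4 replicates 3 and 8 are dark in Lama1, Lamb1 and Gata4.

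Across the 26 libraries each member was compared with the mean of the other 9, as a description over libraries that share treatment and depth. Pearson's r was 0.90 for Lama1, 0.85 for Serpinh1, 0.84 for Hspg2 and for Col4a2, 0.82 for Col4a1, Sparc and Lamc1, 0.78 for P4ha1 and 0.77 for Lamb1. Nid2 stood apart with -0.10. With each group's mean taken off, r was between 0.55 (Sparc) and 0.85 (Lama1) for the 9 genes and 0.25 for Nid2. Lama1 was thus the member closest to the rest in both readings.

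The 5 other genes whose pattern was most like the mean of the members were Aqp8, a water channel (r = 0.94), Foxq1, a forkhead transcription factor (0.93), Rab6a, a GTPase of Golgi transport (0.92), Rhpn1 (0.89) and Pgam2 (0.89). After the group means were taken off, the closest genes included Aqp8 (0.87), Ckap4, a membrane protein of the endoplasmic reticulum (0.87), Rab6a (0.81) and Islr2 (0.79). Aqp8 and Rab6a are in both lists.

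Of 30 other basement membrane components 14 were tested. By limma 0 were called in FGF4 or in LY against DMSO, with 0 and 4 at an unadjusted p under 0.05. The share of all tested genes at that p was 15.5% for FGF4 and 8.59% for LY against DMSO. The laminin chains Lama2, Lamb3 and Lamc3 and the collagen chains Col4a3, Col4a4, Col4a5 and Col4a6 were listed at 0 in all libraries. Lama5, the alpha chain of another laminin, had a log2 fold change of -0.14 with FGF4 (adjusted p = 0.94), and Nid1, the second nidogen, -0.23 (adjusted p = 0.88). Neither was called in any of the 5 comparisons. Fbln1, the matrix glycoprotein fibulin-1, fell in LY+FGF4 against FGF4 (-2.71, adjusted p = 0.04), against LY (-2.70, adjusted p = 0.035) and against DMSO (-3.31, adjusted p = 0.013). Fn1, fibronectin, fell in LY+FGF4 against LY (-1.84, adjusted p = 0.036) and averaged 170 ± 140 TPM in LY.

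Of 29 genes for collagen modification and export 23 were tested, and limma called 0 with FGF4 or with LY against DMSO, with 2 and 3 at an unadjusted p under 0.05, where the share of all tested genes was 15.5% and 8.59%. P4hb, the second subunit of prolyl hydroxylase, was at -0.47 with FGF4 (adjusted p = 0.33) and was not called in any of the 5 comparisons. P4ha2, another catalytic subunit, rose in LY+FGF4 against LY (2.09, adjusted p = 0.0496). Tmed2, a membrane protein of transport vesicles, rose there too (0.59, adjusted p = 0.034). P3h4, at 0 in each of the 6 LY+FGF4 libraries, was called lower there against FGF4, LY and DMSO. Against DMSO, Sec31a of the vesicle coat rose in LY+FGF4 (0.95, adjusted p = 0.04), as did Tmed2 (0.56, adjusted p = 0.049).

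Of 12 receptors 9 were tested. Itga3, an integrin alpha chain that binds laminins, rose with FGF4 against DMSO (2.00 ± 0.48, adjusted p = 0.019), from 9.57 ± 3.55 TPM to 46.4 ± 26.4 TPM. It also rose in LY+FGF4 against LY (1.68, adjusted p = 0.029) and against DMSO (2.09, adjusted p = 0.0091), and had a log2 fold change of 0.10 between LY+FGF4 and FGF4 (95% interval -0.83 to 1.02). Itga6, the other main laminin-binding alpha chain, rose in LY+FGF4 against LY (1.99, adjusted p = 0.0061), and the syndecan Sdc4 in LY+FGF4 against DMSO (1.13, adjusted p = 0.023). Among 7 tested proteases and inhibitors only Serpine2, a protease inhibitor, was called in any comparison (LY+FGF4 against DMSO, 1.87, adjusted p = 0.029).

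Markers of the later endoderm types were looked at as well. Of 8 parietal endoderm markers 4 were tested. Their summed level ran from 12.06 to 50.48 TPM in DMSO, from 1.43 to 22.38 TPM with LY, from 11.65 to 184.83 TPM with FGF4 and from 0 to 96.33 TPM with both, with Fst listed at 0 in all 26 libraries. Of 8 visceral endoderm markers 6 were tested, and Ttr was at 0 in all libraries. Their summed level ran from 428.91 to 732.91 TPM in DMSO, from 421.38 to 1401.42 TPM with LY, from 313.54 to 956.01 TPM with FGF4 and from 530.04 to 1692.17 TPM with both. The sum largely reflects Apoe, which alone averaged 503, 901, 585 and 1213 TPM in these groups. Of the 6 tested visceral markers 2 had a log2 fold change above 0 in LY against DMSO. By limma 0 genes of either list were called with FGF4 or with LY against DMSO. At an unadjusted p under 0.05 there was 1 parietal marker in each comparison, and there were 0 visceral markers with FGF4 and 2 with LY, beside the 15.5% and 8.59% of all tested genes. In LY+FGF4 the parietal marker Pth1r rose against LY (3.44, adjusted p = 0.0288) and DMSO (3.27, adjusted p = 0.0437), and Srgn fell against FGF4 (-2.14, adjusted p = 0.0292). Of the visceral markers, Apoe rose against FGF4 (1.03, adjusted p = 0.0438) and DMSO (1.21, adjusted p = 0.0201), and Cubn fell against FGF4 (-2.01, adjusted p = 0.017).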

How the data were processed

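The deposited values are TPM per gene symbol for 26 libraries, which the authors made from trimmed, de-duplicated reads, per the labels. The submitters' processing notes name STAR, RSEM and mm10. Versions, annotation, strandedness and read totals are not stated there, so no counting interval is given, and 6 libraries with fewer than 9000 genes are taken as the less complete ones. Coordinates are from GENCODE M21 on GRCm38, which matched 53255 of 55254 symbols.

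Genes that reached 1 TPM in 5 or more libraries (12034) were fitted as log2(TPM + 1) with limma 3.58.1 in R 4.3.3, with 1 mean per group, all 26 libraries, and a robust, trended empirical Bayes step. Tests were two-sided, adjusted by Benjamini-Hochberg over all tested genes, and called under 0.05. Chain ratios were compared by exact permutation, adjusted over 15 tests. The scripts were tested on simulated data. P-values measure the spread between single ICMs. Replicate numbers did not pair libraries (31 same-numbered pairs, median r of residuals -0.00406, 0 above 0.1). The members and gene lists were chosen with earlier results of these data known. Text names all 10 members, the called genes of 5 lists (at most 4 each, by adjusted p), Gata4, Gata6, Sox17, Pdgfra, Nid1, P4hb and Lama5 in the comparisons where they are described, and the 5 genes most like the members, of which 1 is not reported here. Alternatives were another pseudocount, no filter, median scaling, library weights, 3 covariates, fewer libraries, fits of the compared groups only, a replicate block, and each library left out.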

Additional observations from a re-analysis of the deposited data

Results flagged for a closer look

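In 40 groups of values (10 genes in 4 treatments), 5 had a library that stood apart by Dixon's criterion, and chance alone gives about 1 in 20 for independent, normally distributed values. These TPM values come from genes that vary together and include zeros, so that rate is nominal. In DMSO this was replicate 8, with Lama1 at 38.71 TPM (the others 0 to 7.38 TPM), Serpinh1 at 206.82 TPM (the others 0 to 30.5 TPM) and Nid2 at 1.02 TPM (the others 0 to 0.16 TPM). In LY it was replicate 7, with Lamc1 at 87.66 TPM (the others 26.22 to 49.89 TPM) and Hspg2 at 1.74 TPM (the others 0 to 0.25 TPM).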

How the results depend on the processing

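Of the 10 genes, the number called in LY against DMSO was 1. It was 2 with library weights, with the trophectoderm covariate, without the 6 libraries under 9000 genes or with only the compared groups. Of all tested genes 496, 43, 130 and 161 were then called, in that order. It was 0 with the genes-listed or primitive endoderm covariate, where 19 and 0 of all tested genes were called. In FGF4 against DMSO, 7 became 4 with a pseudocount of 0.1, 0 with the primitive endoderm and 1 with the trophectoderm covariate. All tested genes then had 242, 2 and 30 calls. In LY+FGF4 against FGF4, 3 became 0 with weights, the genes-listed covariate, without those 6 libraries or with only the compared groups. All tested genes then had 111, 187, 169 and 73 calls. It became 1 with the primitive endoderm covariate, where 286 of all tested genes were called. With the genes-listed covariate the log2 fold changes were -3.21 (Lamb1), -3.19 (Hspg2) and -2.92 (Lama1). In LY+FGF4 against LY, 3 became 0 with the primitive endoderm covariate and 5 without those 6 libraries, with Lamb1 at 3.87. All tested genes then had 3 and 595 calls. In LY+FGF4 against DMSO, 3 became 0 with the genes-listed covariate or only the compared groups, where all tested genes had 75 and 791 calls. With the genes-listed covariate the log2 fold changes were 2.11 (Lamc1), 1.16 (Col4a1) and 1.26 (P4ha1). With either lineage covariate these 3 were lost and 1 other gene, Lamb1, was called lower. The interaction went from 0 to 1 with the primitive endoderm covariate, where 5 of all tested genes were called. Leaving out single libraries gave 0 to 1, 2 to 7, 1 to 3, 3 to 5 and 0 to 3 calls in the 5 comparisons in that order. A replicate block, for numbers that did not pair libraries, gave 0, 1, 1, 5 and 0 calls. All tested genes then had 5, 41, 224, 545 and 460 calls. With the block the Lamb1 to Lamc1 ratio of LY against DMSO was -4.60 and the Lama1 to Lamc1 ratio of LY+FGF4 against FGF4 -2.66 (both adjusted p = 0.38). Without the 6 libraries the latter was -1.50, and the Lama1 to Lamc1 ratio of LY+FGF4 against DMSO turned to 0.25. Leaving out single libraries, Lama1 to Lamc1 was between -3.31 and -2.47 for LY+FGF4 against FGF4 and between -0.10 and 0.74 against LY, and Lamb1 to Lamc1 between -2.63 and -1.50 against FGF4 and between -3.77 and -2.64 against DMSO. The last 2 passed without LY+FGF4 replicate 2.

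Directions turned as follows, and the cause was not tested. With the primitive endoderm covariate, LY against DMSO gave Lama1 3.13, Lamb1 0.40, Col4a1 1.01, Col4a2 0.66, Hspg2 1.43 and Serpinh1 1.88; FGF4 against DMSO gave Lamb1 -1.62 and Nid2 -0.20; LY+FGF4 against FGF4 gave P4ha1 0.0665; LY+FGF4 against LY gave Lama1 -5.36, Lamb1 -4.22, Lamc1 -1.95, Col4a1 -0.18, Col4a2 -0.88, Hspg2 -2.78, Serpinh1 -2.59 and P4ha1 -0.45; LY+FGF4 against DMSO gave Lama1 -2.23, Col4a2 -0.23 and Serpinh1 -0.71. With the trophectoderm covariate, P4ha1 was -0.0496 in LY and Lamb1 -0.31 in FGF4 against DMSO, Lama1 -0.0849 and Hspg2 -0.35 in LY+FGF4 against LY, and Lama1 -1.55 against DMSO. Without the 6 libraries, LY+FGF4 gave Col4a1 0.15 and P4ha1 0.0901 against FGF4, and Lamb1 0.72 and Hspg2 0.20 against DMSO. The block gave P4ha1 -0.11 in LY and Lama1 -0.29 in LY+FGF4 against DMSO. Leaving out single libraries, Lama1 was between -1.31 and 0.0184 and P4ha1 between -0.00303 and 0.33 in LY against DMSO, P4ha1 between -0.38 and 0.0113 in LY+FGF4 against FGF4, and Lama1 between -0.37 and 1.06 and Hspg2 between -0.42 and 0.0759 in LY+FGF4 against DMSO. Of the values that turned, those called with all libraries and no covariate were Col4a1 and Serpinh1 in LY+FGF4 against LY.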
